A study of Mus musculus with 6 samples.

Results

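The macrophage chemokine ligands described here are 10 genes, Ccl2, Ccl3, Ccl4, Ccl5, Ccl6, Ccl7, Ccl9, Cxcl2, Cxcl10 and Cxcl16. They were chosen by name from the 15469 protein-coding genes of the deposited table, and all 10 were found in it. RNA had been measured in 6 libraries of mouse macrophages washed from the peritoneum of animals of the CAIA model, an abbreviation that the labels do not spell out. Cells with RELM-α on their surface had been sorted and then plated in culture. Of the libraries, 3 are labelled KO, for cells in which PU.1 had been deleted, and 3 WT, for control cells, and no promoter or method of the deletion, strain, age, sex or time in culture is given. The labels do not say whether replicates are separate animals or cultures. The p-values therefore cover the spread among these libraries, which could be technical. Where 3 values follow each other for a group, they are replicates 1, 2 and 3 in that order.

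Chemokines are small secreted proteins that bind G protein-coupled receptors on leukocytes and draw them along a gradient. They are named after the spacing of their first cysteines, which are adjacent in CC chemokines (Ccl genes) and separated by another residue in CXC chemokines (Cxcl genes). Macrophages make many of them. The ligands of Ccr2 draw monocytes, those of Cxcr2 draw neutrophils, and those of Cxcr3 draw activated T cells, while the transcription of several is switched on by NF-kB, AP-1 or interferon-driven factors. PU.1, encoded by Spi1, is the ETS transcription factor that macrophages need for their development.

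Transcript amounts of the targeted gene did not follow the label of a deletion. Spi1 had 276.9, 285.5 and 319.7 CPM (counts over TMM-adjusted library sizes) in the KO libraries, and 323.4, 340.2 and 283.7 CPM in the WT libraries. Counts per gene would not show the loss of a part of the transcript. The groups are therefore the libraries labelled KO and labelled WT throughout, and each direction is a direction between those labels. The Y-linked gene Ddx3y had 2 counts in the KO libraries together against 3019 in the WT libraries, so the sex of the donor animals and the label cannot be told apart. Depth was 17280855 to 18632623 counts per library. KO replicate 1 stood apart: its log2 CPM over all tested genes correlated with KO replicates 2 and 3 at Pearson's r of 0.902 and 0.922, and with the WT libraries at 0.955 to 0.959, whereas KO replicates 2 and 3 correlated at 0.990. Macrophage genes such as Csf1r, which encodes the M-CSF receptor, and Lyz2, which encodes lysozyme, were abundant throughout but not at the same level. Csf1r was higher in KO, at 2573 to 2900 CPM against 1560 to 1567 CPM in WT. Lyz2 was at 13170 CPM in KO replicate 1 and at 29740 to 36710 CPM in the other 5 libraries. The RELM-α gene Retnla is not used here. In these bulk libraries a change in the share of cells that express a gene and a change in RNA per cell cannot be told apart.

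Promoters from RefSeq (GRCm38.p6, 250 bases before to 50 bases after the transcription start) were held for 5 of the 10 genes. The 4 shown were chosen for how their genes stood in KO replicate 1 against KO replicates 2 and 3. Ccl9 and Ccl6 were highest in KO replicates 2 and 3, and Cxcl2 and Cxcl10 were highest in KO replicate 1. Ccl9 and Cxcl10 were still both higher in every KO library than in any WT library. Ccl3, whose promoter is not shown, was also highest in KO replicate 1. Capitals mark matches on either strand to GAGGAA (the PU.1 motif), TGANTCA (AP-1), GGGANNTTCC (NF-kB) and GAAANNGAAA (the interferon response element).
Ccl9, chr11:83578587-83578886, minus strand: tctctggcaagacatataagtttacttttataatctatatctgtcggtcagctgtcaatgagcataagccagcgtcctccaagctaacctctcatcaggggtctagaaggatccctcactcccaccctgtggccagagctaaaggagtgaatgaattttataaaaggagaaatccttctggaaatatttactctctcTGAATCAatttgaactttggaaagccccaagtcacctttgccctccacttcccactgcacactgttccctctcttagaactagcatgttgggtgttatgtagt
Ccl6, chr11:83593038-83593337, minus strand: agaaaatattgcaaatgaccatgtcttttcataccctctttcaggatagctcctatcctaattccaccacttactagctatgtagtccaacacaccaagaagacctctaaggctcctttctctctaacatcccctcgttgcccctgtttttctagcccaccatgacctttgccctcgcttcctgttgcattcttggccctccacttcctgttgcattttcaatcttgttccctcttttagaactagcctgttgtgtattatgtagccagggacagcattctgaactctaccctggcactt
Cxcl2, chr5:90903649-90903948, plus strand: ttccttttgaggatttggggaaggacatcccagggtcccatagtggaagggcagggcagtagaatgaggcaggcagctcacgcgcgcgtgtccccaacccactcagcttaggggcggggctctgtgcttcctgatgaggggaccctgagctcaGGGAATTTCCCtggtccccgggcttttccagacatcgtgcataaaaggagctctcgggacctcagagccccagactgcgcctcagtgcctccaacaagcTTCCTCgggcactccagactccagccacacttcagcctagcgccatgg
Cxcl10, chr5:92348840-92349139, minus strand: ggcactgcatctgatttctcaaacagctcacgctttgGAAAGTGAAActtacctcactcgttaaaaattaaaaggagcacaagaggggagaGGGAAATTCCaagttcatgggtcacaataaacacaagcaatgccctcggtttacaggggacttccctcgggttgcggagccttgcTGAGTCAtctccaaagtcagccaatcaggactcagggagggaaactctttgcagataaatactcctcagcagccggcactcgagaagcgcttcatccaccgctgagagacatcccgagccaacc

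The NF-kB motif was found in Cxcl2 (2 overlapping matches starting 97 and 96 bases before the start site) and in Cxcl10 (159 bases before it). It was not found in the promoters of Ccl3, Ccl6 or Ccl9. Among 32544 distinct promoters of the same length, 1.47% held it. The Cxcl10 promoter also held an interferon response element (213 bases before the start, a motif in 3.45% of promoters) and an AP-1 motif (74 bases before the start, 7.79%), and the Ccl9 promoter held an AP-1 motif 53 bases before its start. GAGGAA, found in 28.1% of promoters, occurred in Cxcl2 (from base 3 after the start) and in Ccl3 (33 bases before it). The 4-base ETS core GGAA, of which GAGGAA is an extension, occurred in 96.0% of all promoters and in all 5 here. Positions are those of the leftmost base of a match, read in the direction of the gene, and a match describes letters only. The promoters of the neighbours Ccl6 and Ccl9 were the most alike of the 10 pairs, with 51 identical bases in their best ungapped window of 100 against 39 to 44 in the other 9 pairs, and a longest shared run of 13 bases against 8 to 10.

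Most of the genes lie in clusters. On chromosome 11 (GRCm38, from the deposited table), Ccl2 (82035577 to 82037452) and Ccl7 (82045712 to 82047525) are 8.26 kb apart on the plus strand. A second cluster on the same chromosome holds Ccl5 (83525778 to 83530518), Ccl9 (83572917 to 83578636), Ccl6 (83587886 to 83593087), Ccl3 (83647843 to 83649378) and Ccl4 (83648624 to 83664683). Ccl4 is on the plus strand and the other 4 are on the minus strand. The listed ranges of Ccl3 and Ccl4 overlap by 755 bases, and since the strand setting of the counting is not given in the sources used here, reads from that stretch may have been assigned to either gene. Cxcl2 (90903899 to 90905938) and Cxcl10 (92346638 to 92348889) are on chromosome 5. Cxcl16 is on chromosome 11 at 70454389 to 70459984 in the RefSeq gene table of GRCm38.p6, while the deposited table merges it with an unplaced scaffold.

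In the WT libraries 5 of the 10 transcripts made up nearly all of the total. Levels can be compared between genes only per length, so the deposited TPM values, which are scaled for transcript length, are used for this. Ccl6 was at 136.7 ± 23.1 TPM (SD, n = 3 here and below), Cxcl16 at 131.5 ± 9.7, Ccl4 at 108.8 ± 9.06, Ccl3 at 92.2 ± 7.57 and Ccl9 at 65.7 ± 4.55. Ccl2 was next at 4.94 ± 0.959 TPM, then Ccl5 at 3.91 ± 1.12, Cxcl2 at 3.12 ± 1.35, Ccl7 at 1.89 ± 0.60 and Cxcl10 at 0.07 ± 0.0608. The WT libraries overlapped between Ccl6 and Cxcl16, Ccl2 and Ccl5, Ccl5 and Cxcl2, and Cxcl2 and Ccl7, so those neighbours did not differ beyond their spread. The other neighbours in this order did not overlap.

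The order was different in the KO libraries and differed among them. KO replicate 1 had Ccl4 and Ccl3 first, at 206.8 and 206.6 TPM, and Ccl6 after Ccl9 and Cxcl16 at 79.9 TPM. KO replicates 2 and 3 had Ccl6 first, at 564.9 and 526.8 TPM, followed by Ccl9 at 234.8 and 204.2 TPM. Ccl6 alone took 8.7%, 45.1% and 43.0% of the summed TPM of the 10 genes in the KO libraries, against 21% to 26.9% in the WT libraries. The summed TPM was 917.5, 1252 and 1224 in the KO libraries against 523.8, 559.7 and 563.1 in the WT libraries. All 3 KO libraries lay above all 3 WT libraries in this sum, with a mean of 1131 ± 185.6 against 548.9 ± 21.8 TPM. As a share of all counts, the 10 genes took 0.0574%, 0.107% and 0.100% in the KO libraries and 0.0374% to 0.0408% in the WT libraries.

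**Figure D1:**
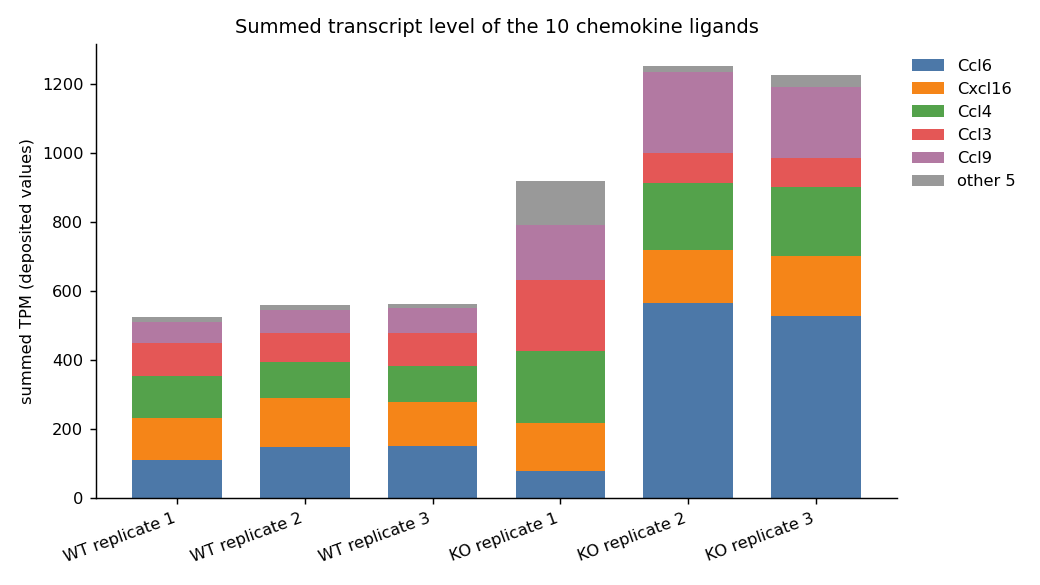
Deposited TPM of the 10 chemokine ligands stacked for each of the 3 WT and 3 KO libraries (vertical axis, summed TPM), with the 5 least abundant ligands joined in grey. The WT libraries reached 523.8 to 563.1 TPM and the KO libraries 917.5 to 1252 TPM, and Ccl6 was the largest block in KO replicates 2 and 3 but a small one in KO replicate 1.

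Between the labels, 2 ligands rose and 0 fell. Of 11424 genes with enough counts to be tested, 3.32% were called at an adjusted p under 0.05 (edgeR quasi-likelihood test, Benjamini-Hochberg adjustment over all genes), 2.26% as higher in KO and 1.06% as lower. Of the 10 ligands 9 were tested, and Ccl9 and Ccl4 were called higher, while Cxcl10 had too few counts. At an unadjusted p under 0.05 there were 4 ligands, all higher (Ccl2, Ccl4, Ccl7 and Ccl9), where 22.7% of all genes tested passed, 15.0% as higher and 7.76% as lower. Limma-voom called the same 2, and DESeq2 called 4, all of them higher (Ccl2, Ccl4, Ccl9 and Cxcl10), where it called 8.71% of 15423 genes, 5.74% as higher and 2.98% as lower. As a description, all 9 had a log2 difference above 0, against 49.3% of all genes tested, and their median was 1.40 against -0.01 for all genes. For 5 of the 10 the KO and WT libraries did not overlap, each time with KO higher (Ccl2, Ccl4, Ccl7, Ccl9 and Cxcl10), which was 4 of the 9 tested against 18.4% of all genes tested with KO higher and 12.6% with KO lower. The ligands share the same 6 libraries and are not independent of each other.

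**Figure D2:**
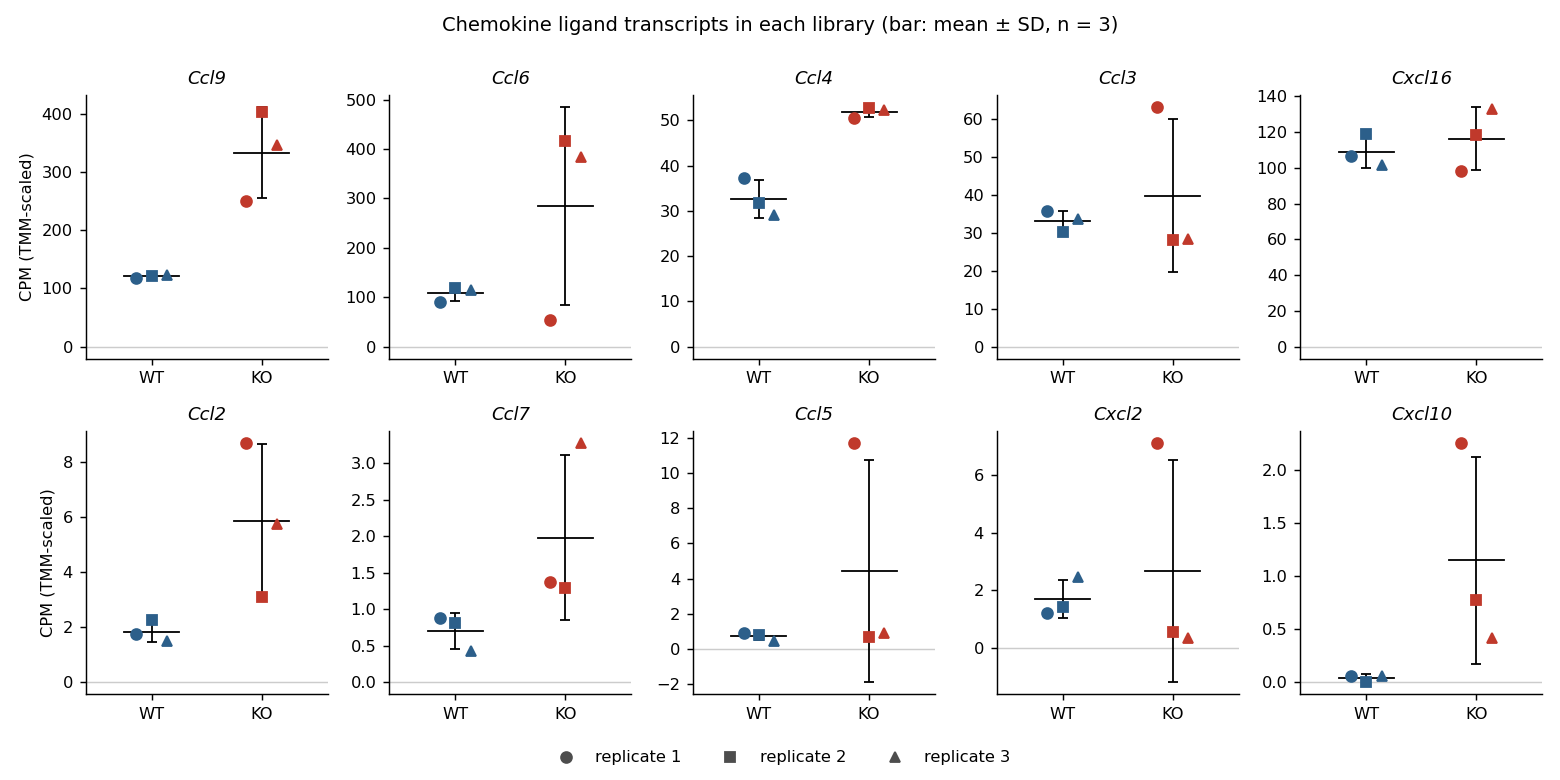
TMM-scaled CPM of each ligand in the 3 WT (blue) and 3 KO (red) libraries, 1 panel per gene with its own linear axis; horizontal and vertical bars are the mean and SD. The 3 KO libraries sit together above WT for Ccl4 (50.5 to 52.6 CPM), while KO replicate 1 (circle) lies far from the other KO libraries for Ccl6, Ccl3, Ccl5 and Cxcl2.

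Ccl9, a CC chemokine of mice that binds Ccr1, showed the clearest difference of the set. The KO libraries held 249.8, 403.7 and 346.4 CPM and the WT libraries 117.5, 120.8 and 122.9 CPM. The lowest KO library was 2.08-fold above the WT mean of 120.4 ± 2.74 CPM, and the KO libraries spread more (333.3 ± 77.8 CPM). The rise was 2.77-fold, or 1.47 on the log2 scale (SE 0.181, 95% interval 1.03 to 1.91, edgeR adjusted p = 0.0217). The difference was 1.65 without KO replicate 1 (edgeR adjusted p = 9.215e-06), where 49.6% of all genes tested were called. It was 2.02 once GC content and transcript length were corrected for (edgeR adjusted p = 0.0385). It lost its call without any one of the other 5 libraries, at adjusted p of 0.0822 to 0.163.

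Ccl4, the T cell and monocyte attractant also known as MIP-1β, rose by less but with the tightest KO values. The KO libraries held 50.5, 52.6 and 52.2 CPM and the WT libraries 37.2, 31.7 and 29.1 CPM. KO replicate 1, which differed from the other KO libraries for most of the ligands, was close to them here. The rise was 1.59-fold, from 32.6 ± 4.13 to 51.8 ± 1.11 CPM (log2 difference 0.67, SE 0.115, 95% interval 0.385 to 0.947, edgeR adjusted p = 0.0443). The call was near the threshold. The edgeR adjusted p was 0.00206 without KO replicate 1, where 49.6% of all genes tested were called. It was 0.0511 without a filter on low counts, 0.0607 with upper-quartile factors and 0.0561 with the GC and length correction. Without any one of the other 5 libraries it was 0.121 to 0.275.

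Ccl3, or MIP-1α, lies beside Ccl4 and acts on Ccr1, but did not follow it. The KO libraries held 63.1, 28.1 and 28.3 CPM and the WT libraries 35.7, 30.3 and 33.6 CPM. KO replicate 1 was the highest library and KO replicates 2 and 3 were the lowest, so that the log2 difference of 0.26 (95% interval -0.593 to 1.12, edgeR adjusted p = 0.648) turned to -0.22 without KO replicate 1 (adjusted p = 0.123). The ratio of Ccl3 to Ccl4 counts was 1.25 in KO replicate 1, 0.534 and 0.542 in the other KO libraries, and 0.958 to 1.16 in the WT libraries. Over the 6 libraries the log2 CPM of Ccl3 and Ccl4 correlated at r = 0.164, and that of Ccl3 and Ccl5 at r = 0.925, where all points share the same libraries and KO replicate 1 carries most of the spread.

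Ccl6, a mouse CC chemokine that binds Ccr1 and lies 9.25 kb from Ccl9, split the KO libraries. The KO libraries held 53.7, 416.2 and 383.0 CPM and the WT libraries 90.4, 118.7 and 113.8 CPM. KO replicate 1 was thus the lowest of the 6 libraries, at 0.499 of the WT mean, and KO replicates 2 and 3 were 3.71-fold above that mean. Over all 6 libraries the log2 difference of 1.40 was not called (SE 0.712, 95% interval -0.358 to 3.16, edgeR adjusted p = 0.297). Without KO replicate 1 it was 1.91 (adjusted p = 2.17e-05), in a comparison in which 49.6% of all 11677 genes tested were called. Ccl9, its neighbour, was 2.08-fold above the WT mean in KO replicate 1 and 3.12-fold in the other KO libraries.

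The ligands of Ccr2, Ccl2 (MCP-1) and Ccl7 (MCP-3), both attract monocytes and were higher in every KO library than in any WT library without being called. Ccl2 was at 8.7, 3.08 and 5.73 CPM in the KO libraries (158, 60 and 110 counts) and 1.75, 2.25 and 1.5 CPM in the WT libraries (30, 39 and 25 counts). Its mean was 3.18-fold higher in KO, or 1.67 on the log2 scale (SE 0.424, 95% interval 0.631 to 2.70, edgeR adjusted p = 0.0925). DESeq2 (adjusted p = 0.00748) and edgeR with the GC and length correction (0.0326) called it. So did edgeR without KO replicate 1 (0.0105), where 49.6% of all genes tested were called. In the authors' deposited table, which was made with DESeq2 too and so adds no further method, its log2 fold change was 1.66 with a q-value of 0.00928. The deposited q-values were also under 0.05 for Ccl4, Ccl9 and Cxcl10, and not for the other ligands. Ccl7 was at 1.38, 1.28 and 3.28 CPM in the KO libraries (25, 25 and 63 counts) and at 0.872, 0.809 and 0.42 CPM in the WT libraries (15, 14 and 7 counts). The log2 difference was 1.49 (95% interval 0.242 to 2.74, edgeR adjusted p = 0.161). KO replicate 1 was the highest library for Ccl2 and KO replicate 3 the highest for Ccl7, and the ratio of Ccl2 to Ccl7 counts was 6.32 in KO replicate 1 against 1.75 to 3.57 in the other 5 libraries.

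Ccl5, or RANTES, a ligand of Ccr1 and Ccr3 made by T cells, platelets and macrophages, was high in a single library. It had 213, 13 and 18 counts in the KO libraries and 16, 14 and 8 in the WT libraries, which is 11.7, 0.667 and 0.938 CPM against 0.93, 0.809 and 0.48 CPM. KO replicate 1 was 15.8-fold above the WT mean, KO replicate 2 lay within the range of the WT libraries and KO replicate 3 just above it. The log2 difference of 2.57 (95% interval -0.462 to 5.60, edgeR adjusted p = 0.274) was 0.13 without KO replicate 1 (adjusted p = 0.813). The T and NK cell markers were near 0 in KO replicate 1, with a summed level of 0.55 CPM over the 7 of 10 markers in the table (0.55 to 1.59 CPM in the KO and 1.14 to 1.91 CPM in the WT libraries), and Cd3e, Cd3g, Cd2, Ncr1 and Nkg7 had no count there. The platelet and megakaryocyte markers, 8 of 8 in the table, summed to 61.2 CPM in KO replicate 1, 20.1 and 18.1 CPM in KO replicates 2 and 3 and 72.0 to 125.0 CPM in the WT libraries. In KO replicate 1 most of this sum was Pf4 (44.9 CPM, against 17.6 to 21.8 CPM in WT), while the other 7 markers were each lower there than in every WT library. The part of such cells in the Ccl5 value was not tested.

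Cxcl2, the neutrophil attractant MIP-2, was also highest in KO replicate 1. It had 129, 11 and 7 counts in the KO libraries and 21, 25 and 41 in the WT libraries, that is 7.1, 0.565 and 0.365 CPM against 1.22, 1.44 and 2.46 CPM. KO replicate 1 was 4.15-fold above the WT mean, while KO replicates 2 and 3 were at 0.272 of it and below every WT library. The log2 difference was 0.64 over all 6 libraries (95% interval -2.17 to 3.45, edgeR adjusted p = 0.737). It turned to -1.84 without KO replicate 1 (edgeR adjusted p = 0.00931), where 49.6% of all genes tested were called. It was also below 0 by limma-voom (-0.52) and on deposited TPM values (-0.043), so the 6 libraries together give no direction for Cxcl2.

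Cxcl10, or IP-10, an interferon-induced ligand of Cxcr3, was close to absent from the WT libraries. It had 41, 15 and 8 counts in the KO libraries and 1, 0 and 1 in the WT libraries. All KO libraries were above all WT libraries, and the ratio of the group totals of 64 and 2 counts, set against total depth, was 31.7 (exact 95% binomial interval 8.43 to 268, for counting error only, since PCR copies are not independent molecules). It did not pass the filter on low counts and has no test over the 6 libraries in edgeR with that filter. Without the filter the adjusted p was 0.0778, and DESeq2 gave 0.00656. KO replicate 1 again was the highest library, at 3.8 times the mean of the other KO libraries.

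Cxcl16, which is made as a membrane-bound protein and shed as a ligand of Cxcr6, had the smallest difference of the 9 tested. The KO libraries held 97.9, 118.4 and 132.7 CPM and the WT libraries 106.4, 119.0 and 101.3 CPM. The groups overlapped, and the log2 difference was 0.10 (SE 0.136, 95% interval -0.237 to 0.427, edgeR adjusted p = 0.674), an interval that spans 0. Its sign changed with the GC and length correction (-0.13) and without KO replicate 3 (-0.046).

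**Figure D3:**
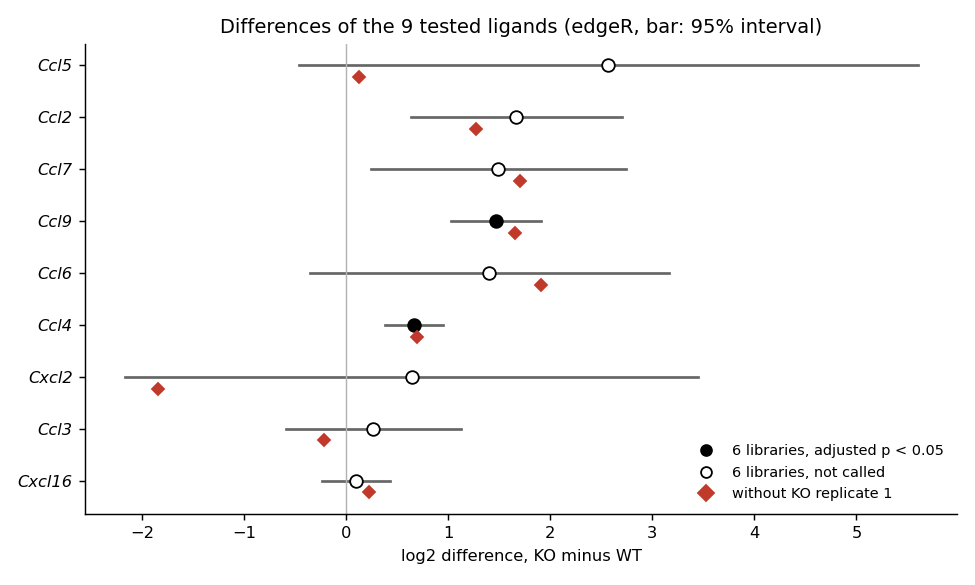
Log2 difference (KO minus WT, horizontal axis) of the 9 tested ligands with its 95% interval from edgeR over 6 libraries, filled where called and open where not, and the value without KO replicate 1 as a red diamond. Ccl9 and Ccl4 are filled, and the diamond lies to the left of 0 for Cxcl2 and Ccl3.

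The ligands therefore differed in how KO replicate 1 stood to the rest. In KO replicate 1, Ccl5, Cxcl2 and Cxcl10 were at least 2-fold above each of the other 5 libraries, which held for 1.16% of all genes tested (Cxcl10 itself was not among those tested). No ligand was 2-fold below all other libraries there, as 1.6% of genes were, and Ccl6 came nearest as the lowest of the 6. Without KO replicate 1, 5 of the 9 tested ligands were higher (Ccl2, Ccl4, Ccl6, Ccl7 and Ccl9) and Cxcl2 was lower, against 23.6% higher and 26.0% lower of all genes in that comparison. Markers of monocytes and small peritoneal macrophages, of which 9 of 10 were in the table, did not move together. Their summed level was 131.6 CPM in KO replicate 1, 67.0 and 75.2 CPM in KO replicates 2 and 3, and 14.6 to 15.7 CPM in the WT libraries. Most of the sum was Ccr2 (64.1 CPM) and Ly6c2 (20.1 CPM) in KO replicate 1 but Fn1 (62.0 and 69.4 CPM) in KO replicates 2 and 3. Fn1 and Cd226 were lower in KO replicate 1 than in every WT library. Dendritic cell markers, 8 of 8 in the table, summed to 12.6 CPM in KO replicate 1, 1.23 and 1.72 CPM in the other KO libraries and 3.54 to 4.62 CPM in WT. In KO replicate 1 most of this sum was Cd209a (134 counts), which the monocyte list also holds, and Siglech (49 counts). Flt3 (14 counts) and Ccr7 (7 counts) were also highest there. Clec9a, Batf3 and Zbtb46 were lower there than in every WT library, and Xcr1 had 1 count there and 0 in the other libraries. Fibroblast markers, 6 of 7 in the table, summed to 4.13 CPM in KO replicate 1, 24.5 and 37.5 CPM in KO replicates 2 and 3 and 5.65 to 8.84 CPM in WT. The part of these cells in the chemokine values was not tested.

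Of 6 receptors of these ligands 4 were tested, and edgeR called 0 of them. At an unadjusted p under 0.05 there were 0 higher and 2 lower (Ccr1 and Ccr3), against 15.0% higher and 7.76% lower of all genes tested. Limma-voom called 0 of these receptors, and DESeq2 called Ccr1 lower. Ccr1, the receptor of Ccl3, Ccl5, Ccl6 and Ccl9, was at 109.5, 109.6 and 136.6 CPM in the KO libraries and 150.3, 168.4 and 201.3 CPM in the WT libraries, with no overlap (log2 difference -0.55, edgeR adjusted p = 0.106). Ccr2, the monocyte receptor of Ccl2 and Ccl7, was at 64.1 CPM in KO replicate 1 and at 1.54 to 2.58 CPM in all other libraries. Cxcr3, the receptor of Cxcl10, was at 11.0 ± 2.94 against 9.68 ± 1.37 CPM (adjusted p = 0.629), and Ccr3, which Ccl5 and Ccl7 bind, at 0.852 ± 0.593 against 2.25 ± 0.352 CPM (0.205). Cxcr2 and Cxcr6, the receptors of Cxcl2 and Cxcl16, were at 0.407 CPM or less in every library and were not tested.

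**Figure D4:**
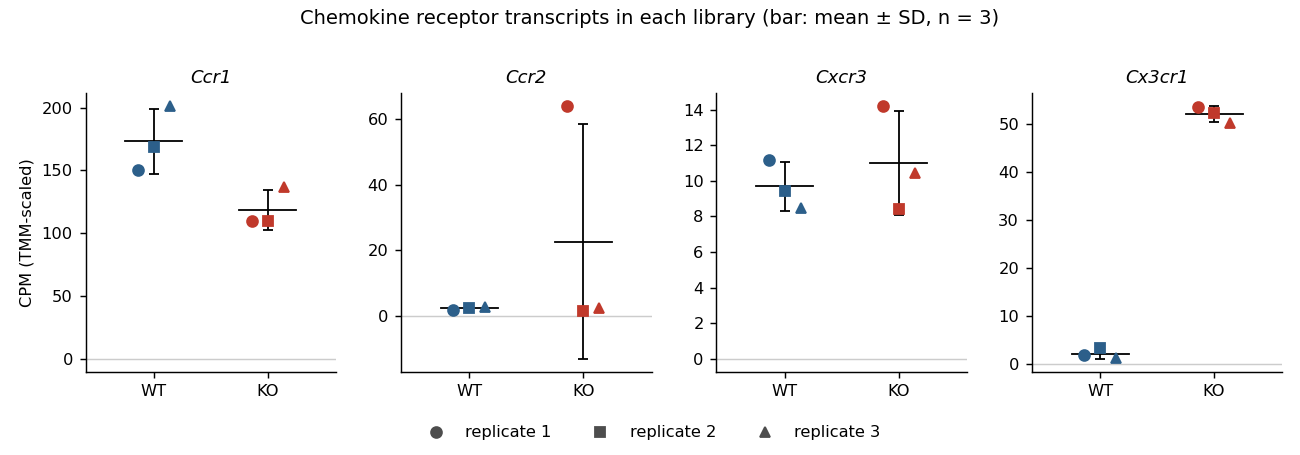
TMM-scaled CPM of 4 chemokine receptors in the 3 WT (blue) and 3 KO (red) libraries on linear axes, with mean and SD. Cx3cr1 separates the labels (50.3 to 53.7 CPM in KO against 1.14 to 3.29 CPM in WT), Ccr1 is lower in KO without being called, and Ccr2 is high only in KO replicate 1.

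Over the whole receptor list, 17 of 19 genes were in the table and 7 were tested, with a median log2 difference of 0.19. Of these 1 rose and 0 fell, where 2.26% of all genes tested rose and 1.06% fell. The one called was Cx3cr1, the receptor of fractalkine (52.1 ± 1.7 against 2.08 ± 1.1 CPM, edgeR adjusted p = 0.0126). Of the other chemokine ligands, 16 of 28 were in the table and 7 were tested, and 0 were called by edgeR. At an unadjusted p under 0.05 there were 3, against 22.7% of all genes tested. DESeq2 called 2 of these ligands higher and 1 lower, where it called 5.74% of all genes higher and 2.98% lower. The tested one with the smallest p was Cx3cl1, which encodes fractalkine, at 3.25, 1.44 and 1.82 CPM in the KO libraries and 0.64, 0.404 and 0.12 CPM in the WT libraries (log2 difference 2.46, adjusted p = 0.0856). The 1 atypical chemokine receptor in the table, Ccrl2, was at 28.9 ± 7.42 against 38.2 ± 3.32 CPM (adjusted p = 0.305).

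Proteases that cut or shed chemokines, a list of 10 genes of which 7 were tested, had a median log2 difference of -0.15. Of all genes tested, edgeR called 1.06% lower and 2.26% higher, and in this list 1 fell and 0 rose. The 1 that fell was Mmp12, the macrophage elastase, at 1896, 923.6 and 1387 CPM in KO against 3611, 4221 and 4673 CPM in WT (log2 difference -1.57, edgeR adjusted p = 0.0471). Adam10 and Adam17, the sheddases of Cxcl16, were not called, and DESeq2 likewise called 0 of the list higher and 1 lower. Of 29 regulators of chemokine transcription and mRNA decay, all tested, 2 rose and 0 fell, with a median log2 difference of 0.04. At an unadjusted p under 0.05 in edgeR there were 10, against 22.7% of all genes tested. DESeq2 called 8 higher and 1 lower, where it called 5.74% of all genes higher and 2.98% lower. The 2 that rose by edgeR were Irf7, an interferon-induced interferon regulatory factor (13.3 ± 3.21 against 4.08 ± 0.621 CPM, adjusted p = 0.0269), and Cebpd, a C/EBP transcription factor of inflammation (29.5 ± 1.66 against 14.4 ± 3.03 CPM, adjusted p = 0.0402). None of the 5 subunits of NF-kB was called. On TMM-scaled CPM, Nfkb1, Nfkb2, Relb and Rela were higher in every KO library than in any WT library (edgeR adjusted p = 0.0638, 0.0678, 0.0709 and 0.306). Such a gap with KO higher was found for 18.4% of all genes tested, and with KO lower for 12.6%. Rel was at 46.3, 9.86 and 14.5 CPM in KO against 32.6 to 42.0 CPM in WT (log2 difference -0.67, edgeR adjusted p = 0.497), with KO replicates 2 and 3 below every WT library. Fos, a subunit of AP-1, was lowest in KO replicates 2 and 3 but within the WT range in KO replicate 1, with 106.3, 30.2 and 30.5 CPM in KO and 94.6 to 113.2 CPM in WT. Jun, also of AP-1, was at 174.6, 175.1 and 178.0 CPM in KO and 165.5 to 174.6 CPM in WT. Of 18 inflammatory cytokines, 10 were tested, and Csf1 rose (32.8 ± 5.01 against 5.97 ± 1.14 CPM, adjusted p = 0.0106) while Il1a fell (0.854 ± 0.486 against 5.27 ± 1.27 CPM, adjusted p = 0.0464). Tnf was at 48.2 CPM in KO replicate 1, 19.7 and 18.9 CPM in the other KO libraries and 14.5 to 16.4 CPM in WT (adjusted p = 0.238). The NF-kB subunits, Fos, Jun and Tnf were chosen after their values were seen.

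Among all genes tested, those whose log2 CPM followed a ligand most closely over the 6 libraries were Itgal and Capn5 for Ccl9, Gmfg and Ebi3 for Ccl4, Sirpa and Carhsp1 for Ccl6, Abcc1 and Serpinb6b for Ccl3, and Rhbdf2 and Patz1 for Ccl2. For Ccl5 they were Slc39a4 and Slc9a8, for Cxcl2 Washc2 and Ttc30b, for Ccl7 Psmg4 and Ap1g2, and for Cxcl16 Mlycd and Cep44. Pearson's r lay between 0.983 and 0.9998 in these pairs. With 6 libraries that share their depth and grouping and 11424 genes to choose from, such values are a description only. Among the ligands themselves, the log2 CPM of Ccl4 and Ccl9 correlated at 0.924, of Ccl3 and Cxcl2 at 0.889 and of Ccl2 and Ccl7 at 0.765, whereas Ccl6 and Cxcl2 correlated at -0.903.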

How the data were processed

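Messenger RNA of sorted and cultured RELM-α+ peritoneal macrophages of mice was sequenced with Illumina chemistry (labels' protocols), and groups were taken from the sample titles (3 KO, 3 WT). The submitters' processing notes name fastp 0.18.0 and the build GRCm39, but the chromosome accessions of the deposited table are those of GRCm38, and 13128 of the 15426 genes whose ID is in the RefSeq gene table of GRCm38.p6 start at the same base there. Which aligner, counter and strand setting were used is not stated in any source used here. The authors deposited estimated counts per gene, not normalized, of which 4.82% to 5.49% per library were not whole numbers and were rounded here. The deposited TPM values served for levels between genes, and the deposited FPKM values were not used. The authors' deposited table also holds log2 fold changes with p-values and q-values, made with DESeq2 per the file headers.

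Of 15469 genes, 11424 passed filterByExpr (minimum count 10). The main test was edgeR's (4.0.16, in R 4.3.3) robust quasi-likelihood F test with TMM factors. The model held the group alone, p-values were adjusted by Benjamini-Hochberg across the tested genes, and calls were made at an adjusted p under 0.05. Tried besides were DESeq2 1.42.0, limma-voom (limma 3.58.1), RLE or upper-quartile scaling, testing without a filter, a minimum mean of 10 CPM, limma on log2(TPM + 1) for genes with a mean of at least 1 TPM, the replicate number as a block and each library left out. A correction for GC content and length (mgcv 1.9.3, smooth terms per library) was chosen after seeing the data. The fit was tested on simulated data in which no library stood apart as KO replicate 1 did here, so that case was not covered. The ligands, gene lists and motifs were chosen with earlier results of these data known. All 10 ligands were named, 6 of their receptors, from each list the called genes of 1 CPM or more on average (the 3 that changed most) or else the one with the smallest p, and for each tested ligand the 2 genes of highest correlation. Some genes that this rule covers are not reported here.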

Additional observations from a re-analysis of the deposited data

How the results depend on the processing

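Ccl9 and Ccl4 were each above 0 in all alternatives run. The number of called genes was 379 of 11424 and that of called ligands 2 of 9. All genes called numbered 1344 with DESeq2 (4 ligands), 231 with a mean of at least 10 CPM, 899 on log2(TPM + 1) (795 of them higher), while correcting for GC and length gave 594, which moved the share of higher calls from 258 of 379 to 302 of 594; the ligands called were then Ccl9 and Ccl2. Ccl9 was the 1 ligand called with upper-quartile factors and without a filter. Leaving out 1 library gave 5 to 5793 called genes and 0 to 6 called ligands, the highest without KO replicate 1 and 0 ligands without any other. With 1 library left out, Cxcl2 ranged from -1.84 to 1.14, Ccl3 from -0.22 to 0.44 and Cxcl16 from -0.046 to 0.22, below 0 without KO replicate 1, KO replicate 1 and KO replicate 3 respectively. Cxcl2 was also at -0.52 by limma-voom and -0.043 on log2(TPM + 1), and Cxcl16 at -0.13 after the GC and length correction; the cause was not tested. With the replicate number as a block, 0 genes and 0 ligands were called and Cxcl2 was at -0.44. The deviations of KO and WT libraries of the same number from their group means correlated at -0.162, 0.246 and -0.271. With 3 libraries per group such values cannot decide whether a number marks a shared day or animal. The labels do not say. The log2 ratio of summed TPM was 1.03, and 1.13 as a share of counts. Cxcl10, with 2 counts in WT, is limited by depth.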
